A study of Mus musculus with 6 samples.

Results

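The cytosolic heat shock genes described here are the 10 genes *Hspa1a*, *Hspa1b*, *Hspa8*, *Hsph1*, *Dnaja1*, *Dnajb1*, *Hsp90aa1*, *Hsp90ab1*, *Hspb1* and *Hspb8*, taken by symbol from the 24346 genes of a mouse liver RNA-seq table. Whole livers of 6 male C57/BL6 mice, 1 mouse per library, were taken at 8 weeks of age, 24 hours after an intraperitoneal dose of 0.6 µl CCl4 per g body weight in sunflower oil. The sample labels give the genotypes as wt for 3 controls and med23 ko for 3 other mice. The study's design names these groups *med23* f/f, with floxed *Med23* alleles, and *med23*Δli, with *Albumin*-cre on the same floxed alleles, and the livers labelled med23 ko are called *med23*Δli-labelled here. The study describes the deletion as specific to hepatocytes, so by design the other cells of the liver keep an intact *Med23* in both groups. *Med23* was not measured by cell type here. All 6 mice received CCl4, a toxin that becomes harmful once hepatocytes metabolise it, so the comparison is between genotypes in injured liver and not between injured and uninjured liver.

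Heat shock proteins are chaperones that hold unfolded proteins in a soluble state, refold them or pass them on for degradation. In the cytosol, J-domain proteins such as DNAJA1 and DNAJB1 deliver unfolded clients to HSP70, exchange factors such as HSPH1 reset HSP70 by releasing its ADP, and HSP90 takes over clients for their final folding. Small heat shock proteins such as HSPB1 and HSPB8 bind unfolded proteins without using ATP. Heat shock factor 1 (HSF1) switches on many of these genes when unfolded proteins accumulate, through repeats of the letters nGAAn in alternating orientation in their promoters, whereas *Hspa8* and *Hsp90ab1* are also made at high levels in unstressed cells.

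The small heat shock gene *Hspb1* was called higher and the inducible HSP70 gene *Hspa1b* lower in this comparison, so their promoters are shown, with that of *Hspa1a*, the neighbouring copy of *Hspa1b*. Of the 10 genes, 7 have an entry among the 300-base promoter sequences of RefSeq (GRCm38.p6, 250 bases before to 50 bases after each start). The stretches below run 5′ to 3′ from position −150 to −51 relative to the start, and the capitals mark GAANNTTC, the letters of 2 neighbouring heat shock units, where N is any base. They lie at chr17:34972207-34972306 (minus strand) for *Hspa1a*, chr17:34959289-34959388 (minus strand) for *Hspa1b* and chr5:135887769-135887868 (plus strand) for *Hspb1*.
Hspa1a: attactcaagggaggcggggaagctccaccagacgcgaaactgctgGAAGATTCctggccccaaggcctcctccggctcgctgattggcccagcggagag
Hspa1b: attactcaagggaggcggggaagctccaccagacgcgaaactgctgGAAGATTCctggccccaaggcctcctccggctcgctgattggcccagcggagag
Hspb1: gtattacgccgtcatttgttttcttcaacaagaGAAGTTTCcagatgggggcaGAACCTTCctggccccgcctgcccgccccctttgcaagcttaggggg

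The *Hspa1a* and *Hspa1b* stretches are identical, and 3 of the 250 bases before the start differ between the genes. Both hold GAANNTTC at position −104, and *Hspb1* holds it at −117 and −97. The 8-letter motif reads the same on both strands. It is present in 2582 of all 32851 RefSeq promoters of the same length (7.86%), and the other order of the same letters, TTCNNGAA, in 2799 (8.52%). *Hspb8* holds GAANNTTC at position 3 after its start, and the first of 3 *Dnaja1* promoters holds it at −124. The *Hsph1* promoters are overlapping windows that hold the same 3 units in a row after their starts. Anywhere in the window and on either strand, 0.603% of all promoters hold such a run. In *Hsph1* these 3 units contain the overlapping matches to both shorter motifs, and its windows also share a TTCNNGAA upstream. Neither *Dnajb1* promoter holds either motif. A match is a description of the letters in these windows, and binding of a factor was not measured here.

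Values are FPKM, in which fragment numbers are scaled by the length of the transcript and the size of the library, and which allow levels to be compared between genes. Depth cannot be read from them, so errors come from the spread among replicate mice alone. Groups were compared with limma on log2(FPKM + 0.1) over the 11956 genes whose mean over the 6 libraries reached 0.5 FPKM, and all 10 heat shock genes were among them. A gene is called higher or lower at a Benjamini-Hochberg adjusted p under 0.05. *Med23* itself did not separate the groups, at a mean of 3.51 ± 0.589 FPKM in the controls and 3.24 ± 0.286 FPKM (SD, n = 3 each) in the *med23*Δli-labelled livers (log2 fold change −0.11, SE 0.17, limma adjusted p = 0.685), and its FPKM covers the whole gene and all liver cells. In bulk liver, fewer cells of a type and less RNA per cell cannot be told apart.

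In the *med23*Δli-labelled livers, 4 of the 10 genes were higher, *Hspb1*, *Hspa8*, *Hsp90aa1* and *Hspb8*, and 1, *Hspa1b*, was lower. Over all genes tested, 11.6% were called higher and 9.48% lower. The remaining 5, *Hspa1a*, *Hsph1*, *Dnaja1*, *Dnajb1* and *Hsp90ab1*, did not pass. The median log2 fold change of the 10 genes was 0.74, and that of all genes tested was 0.02. In 5 of them each *med23*Δli-labelled liver lay above every control, which 23.3% of all genes tested did, and in 1 every such liver lay below every control, which 20.4% did.

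**Figure D1:**
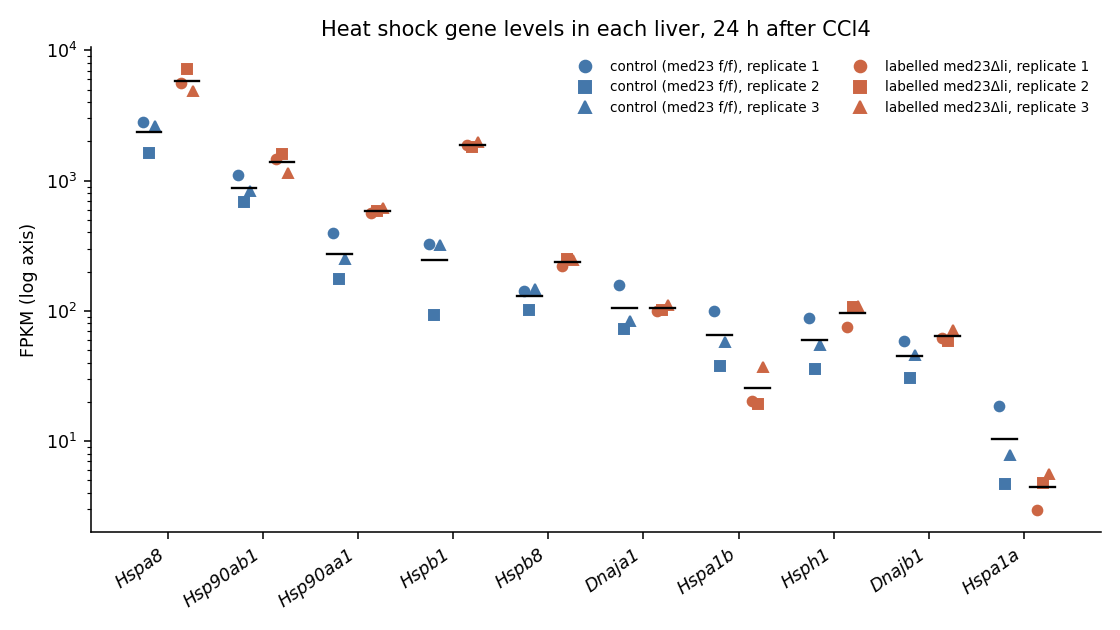
FPKM of the 10 heat shock genes (log axis, ordered by their control mean) in each of the 3 control livers (blue) and the 3 *med23*Δli-labelled livers (orange), with the group mean as a bar. *Hspb1* moved from a control mean of 246.5 FPKM to 1881 FPKM, whereas *Hspa1b* lay lower in all 3 *med23*Δli-labelled livers.

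**Figure D2:**
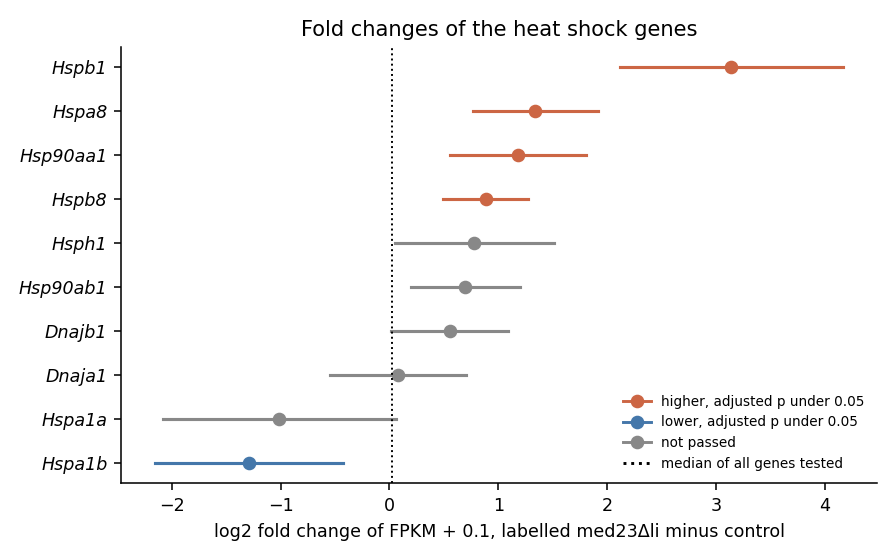
The log2 fold change of each heat shock gene on the log2(FPKM + 0.1) scale (point) with its 95% confidence interval from limma (line), coloured by call, with the median of all 11956 genes tested as a dotted line. The 10 genes run from −1.29 for *Hspa1b* to 3.14 for *Hspb1*.

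The HSP70 machine was led by *Hspa8* (ENSMUSG00000015656.17, chromosome 9 of mm10, 40800984 to 40810087, plus strand), the constitutive cytosolic HSP70, which also strips clathrin from vesicles. *Hspa8* had 2794, 1626 and 2639 FPKM in the controls and 5616, 7143 and 4847 FPKM in the *med23*Δli-labelled livers. The groups were well apart, with means of 2353 ± 634 and 5869 ± 1168 FPKM (SD, n = 3 each). The log2 fold change was 1.34 with an SE of 0.25 (limma adjusted p = 0.0115). By mean FPKM it ranked 30 of 24346 genes in the controls and 8 in the *med23*Δli-labelled livers.

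Of the inducible HSP70 genes, *Hspa1b* was lower. *Hspa1b* (ENSMUSG00000090877.3, chromosome 17, 34956436 to 34959238, minus strand) had 99.4, 37.6 and 57.3 FPKM in the controls and 20.4, 19.4 and 36.9 FPKM in the *med23*Δli-labelled livers. The highest of the latter lay just below the lowest control. The means were 64.8 ± 31.6 and 25.6 ± 9.85 FPKM (SD, n = 3 each). *Hspa1b* thus fell by 1.29 on the log2 scale, with an SE of 0.37 (limma adjusted p = 0.0451). This call is marginal, since leaving out any 1 library other than control replicate 2 raised the adjusted p above the threshold, to 0.0523 to 0.135, while the log2 fold change stayed between −1.62 and −0.92 over all 6 omissions.

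The neighbouring copy *Hspa1a* (ENSMUSG00000091971.3, chromosome 17, 34969190 to 34972156, minus strand) was lower in level, with 18.4, 4.67 and 7.86 FPKM in the controls and 2.97, 4.76 and 5.64 FPKM in the *med23*Δli-labelled livers. Its groups overlapped, and it did not pass (log2 fold change −1.01, SE 0.46, limma adjusted p = 0.150). Its log2 fold change was −0.48 without control replicate 1 and −1.46 without control replicate 2, and it passed in none of the 6 omissions. Of the 2704 stretches of 100 bases in the *Hspa1b* transcript, 49.9% occur letter for letter in the *Hspa1a* transcript, so the split of reads between the copies is uncertain. Their summed level was 75.1 ± 38.8 FPKM in the controls and 30.0 ± 10.9 FPKM in the *med23*Δli-labelled livers (SD, n = 3 each). The difference on the log2 scale was −1.25 (exact two-sided permutation p = 0.2, where 3 against 3 livers cannot give less than 0.1), so their sum did not separate the groups.

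Within a single liver the 2 kinds of HSP70 therefore stood further apart. *Hspa8* exceeded *Hspa1b* 28.1-, 43.2- and 46.1-fold in the controls and 275-, 368- and 131-fold in the *med23*Δli-labelled livers. The groups did not overlap. The mean log2 ratio of *Hspa1b* to *Hspa8* was −5.26 ± 0.39 in the controls and −7.88 ± 0.77 in the *med23*Δli-labelled livers, a difference of −2.63 (exact two-sided permutation p = 0.1, the smallest the design allows).

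The partners of HSP70 in this set did not pass. *Hsph1*, the HSP110 exchange factor, had 88.5, 35.5 and 54.9 FPKM in the controls and 75.0, 107 and 109 FPKM in the *med23*Δli-labelled livers (log2 fold change 0.78, SE 0.32, limma adjusted p = 0.115). Control replicate 1 lay inside the range of the other group, and without that library the adjusted p was 0.0341 and the log2 fold change 1.11. Without control replicate 2 the log2 fold change of *Hsph1* was 0.45 (limma adjusted p = 0.255). *Dnajb1*, the J-domain protein that HSP70 uses in refolding, had 58.8, 30.5 and 46.2 FPKM in the controls and 62.4, 58.6 and 71.7 FPKM in the *med23*Δli-labelled livers (log2 fold change 0.55, SE 0.23, limma adjusted p = 0.125), and its groups met at 58.6 and 58.8 FPKM. Without control replicate 2 its log2 fold change was 0.29, and without control replicate 1 it was 0.77, with no call in any of the 6 omissions.

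*Dnaja1*, a second J-domain partner, had 157, 72.9 and 83.5 FPKM in the controls and 99.9, 102 and 112 FPKM in the *med23*Δli-labelled livers. The group means were 105 ± 46.1 and 104 ± 6.43 FPKM (SD, n = 3 each). Its log2 fold change was 0.08, with a 95% confidence interval from −0.54 to 0.70 (limma adjusted p = 0.852), and this estimate fell below 0 under quantile normalization and without control replicate 2 or 3. At these levels the 3 controls covered the whole range of the other group.

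Of the HSP90 pair, *Hsp90aa1* (ENSMUSG00000021270.13, chromosome 12, 110690605 to 110702728, minus strand), the stress-inducible form, was higher. It had 399, 176 and 250 FPKM in the controls and 561, 583 and 620 FPKM in the *med23*Δli-labelled livers, with no overlap. Its log2 fold change was 1.18 with an SE of 0.27 (limma adjusted p = 0.0222). Leaving out replicate 1, 2 or 3 of the *med23*Δli-labelled livers ended the call, at adjusted p = 0.0677, 0.0698 and 0.0772, while the log2 fold change ranged from 0.90 to 1.48 over all 6 omissions.

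*Hsp90ab1* (ENSMUSG00000023944.14, chromosome 17, 45567775 to 45573271, minus strand), the constitutive form, had 1109, 680 and 826 FPKM in the controls and 1470, 1591 and 1134 FPKM in the *med23*Δli-labelled livers. These groups did not overlap either, though 1109 and 1134 FPKM were close, and the gene did not pass (log2 fold change 0.70, SE 0.22, limma adjusted p = 0.0556). Without control replicate 1 it did, at adjusted p = 0.0378, and also with robust eBayes, at adjusted p = 0.0487, where 5 of the 10 genes were called higher. Within a liver, *Hsp90ab1* exceeded *Hsp90aa1* 2.78-, 3.86- and 3.30-fold in the controls and 2.62-, 2.73- and 1.83-fold in the *med23*Δli-labelled livers. The log2 ratio of *Hsp90aa1* to *Hsp90ab1* differed by 0.48 between the groups (exact two-sided permutation p = 0.1, the smallest possible), with the nearest values 2.73 and 2.78. This difference ranged from 0.30, without *med23*Δli-labelled replicate 3, to 0.60, without control replicate 1, over the 6 omissions.

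The small heat shock gene *Hspb1* (ENSMUSG00000004951.10, chromosome 5, 135887919 to 135889563, plus strand) encodes HSP25, which also binds actin filaments. It had 328, 92.7 and 319 FPKM in the controls and 1863, 1805 and 1974 FPKM in the *med23*Δli-labelled livers. The lowest of the latter was far above the highest control, and the ratio of the means was 7.63. The log2 fold change was 3.14 with an SE of 0.44 (limma adjusted p = 0.00521), and it was between 2.54 and 3.45 with any 1 library left out. The rank of *Hspb1* among all 24346 genes went from 343 to 36, and its part of the summed FPKM of the 10 genes from 5.58% ± 2.07 to 18.6% ± 3.04 (SD, n = 3 each).

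*Hspb8* (ENSMUSG00000041548.4, chromosome 5, 116408491 to 116422864, minus strand) encodes HSP22, which works with the HSP70 exchange factor BAG3 in the removal of damaged proteins by autophagy. It had 142, 102 and 148 FPKM in the controls and 221, 250 and 246 FPKM in the *med23*Δli-labelled livers, again with no overlap. Its log2 fold change was 0.88 with an SE of 0.17 (limma adjusted p = 0.0126). The adjusted p was 0.0538 without replicate 2 and 0.0516 without replicate 3 of the *med23*Δli-labelled livers.

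The small heat shock genes differed in the size of the change. *Hspb1* exceeded *Hspb8* 2.30-, 0.906- and 2.16-fold in the controls, so it was the lower of the pair in control replicate 2, and 8.44-, 7.23- and 8.04-fold in the *med23*Δli-labelled livers. The log2 ratio of *Hspb8* to *Hspb1* differed by −2.26 between the groups (exact two-sided permutation p = 0.1, the smallest possible).

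**Figure D3:**
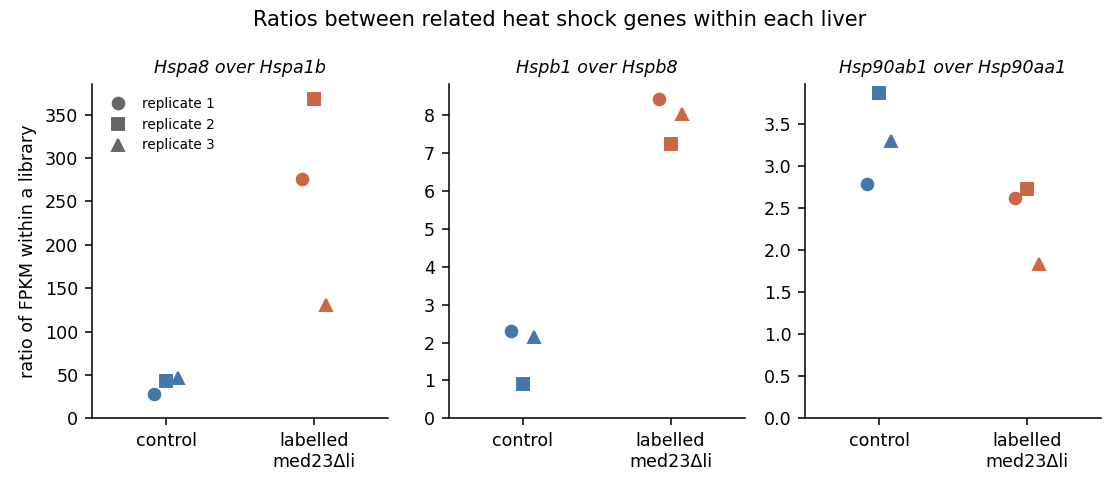
The ratio of FPKM between related genes within each liver, *Hspa8* over *Hspa1b*, *Hspb1* over *Hspb8* and *Hsp90ab1* over *Hsp90aa1*, on linear axes that start at 0, with the replicates as symbols. The first 2 ratios were higher in all 3 *med23*Δli-labelled livers (orange) than in all 3 controls (blue), at least 131 against at most 46.1 and at least 7.23 against at most 2.30, and the third was lower, at most 2.73 against at least 2.78.

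Some of the genes share sequence with annotated pseudogenes, which affects how reads can be placed. By the same count of 100-base stretches, 62.8% of *Hspa8*, 47.6% of *Hsp90aa1*, 42.7% of *Hspb1* and 14.8% of *Dnaja1* also occur in transcripts of other genes, which were not analysed here, whereas *Hspb8*, *Hsph1*, *Dnajb1* and *Hsp90ab1* share none. *Hspa8* also contains snoRNA genes in its introns, *Gm20481* lies opposite *Hspa1a*, and *Gm6297* and *Smu1* overlap *Dnaja1* on the other strand. How the counting treated such reads was not stated, and their part in the values was not tested.

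The order of the levels changed between the groups. In the controls the means ran from *Hspa8* at 2353 FPKM over *Hsp90ab1* at 871, *Hsp90aa1* at 275, *Hspb1* at 246.5, *Hspb8* at 131, *Dnaja1* at 105, *Hspa1b* at 64.8, *Hsph1* at 59.6 and *Dnajb1* at 45.2 to *Hspa1a* at 10.3 FPKM. From *Hsp90aa1* down to *Dnajb1* each gene's 3 values overlapped those of the next. In the *med23*Δli-labelled livers *Hspb1* stood second, at 1881 FPKM, and *Hspa1b* had dropped below *Dnajb1*. There only *Dnaja1* and *Hsph1*, at 104 and 96.9 FPKM, overlapped as neighbours. Together the 10 genes made up 0.663% ± 0.198 of the summed FPKM of a control library and 1.66% ± 0.123 of a *med23*Δli-labelled library (SD, n = 3 each).

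The controls varied together across these genes. Control replicate 2 was the lowest control for all 10, and control replicate 1 the highest for 9, whereas over all genes tested the shares were 39.8% and 33.7%. Control replicate 2 was also the lowest control for 15 of the 20 other HSF1 targets and 11 of the 17 HSP90 co-chaperones of the lists used here, and for 1 of 6 prefoldin genes. In control replicate 2 the log2 level lay between 0.49 and 1.80 below the mean of the other controls, and the gap was largest for *Hspb1*. The coefficient of variation was larger in the controls than in the *med23*Δli-labelled livers for all 10 genes, with medians of 42.6% and 13.7%. Over all genes tested it was larger in the controls for 72.6%, with medians of 17.8% and 10.3%. Without control replicate 2, the same 4 genes were called higher and *Hspa1b* lower, with log2 fold changes of 2.54 for *Hspb1*, 1.09 for *Hspa8*, 0.90 for *Hsp90aa1*, 0.72 for *Hspb8* and −1.62 for *Hspa1b*.

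**Figure D4:**
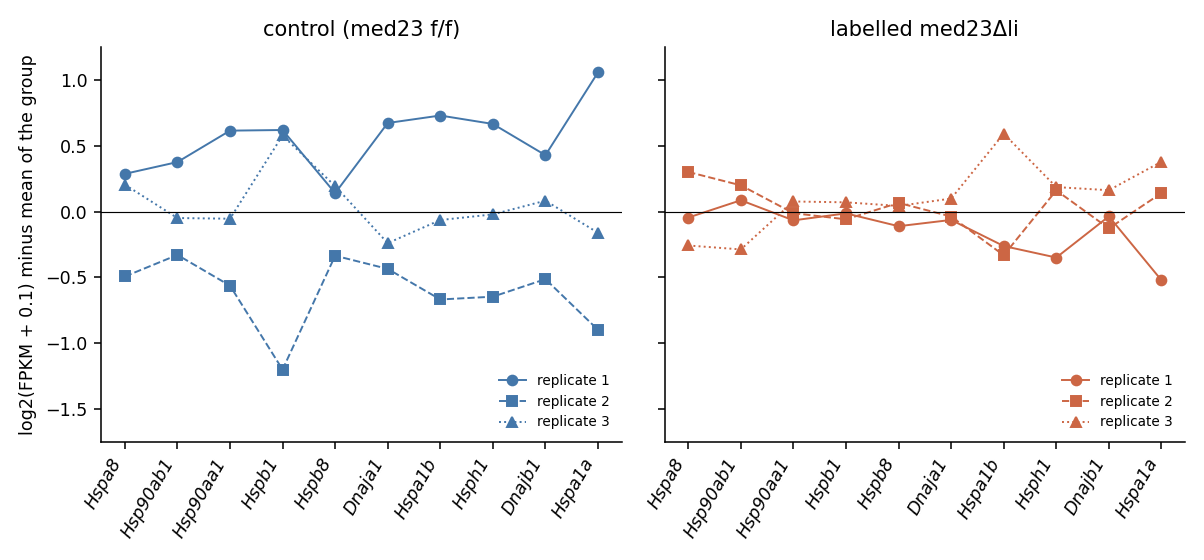
Each library's log2(FPKM + 0.1) minus the mean of its group, for the 10 heat shock genes ordered by control level, with controls on the left and *med23*Δli-labelled livers on the right. In the controls the line of replicate 2 lies lowest at all 10 genes, and no library of the other group does so.

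Markers of other cells were read in the same libraries. All 8 markers of liver endothelium were lower in the *med23*Δli-labelled livers, with summed levels of 92.5 to 132 FPKM in the controls and 50.4 to 54.1 FPKM in the other group, and their part in the changes of the heat shock genes was not tested. The 8 hepatocyte markers summed to 27709 to 37330 FPKM and to 23967 to 30251 FPKM, with none of the 8 called, and none of the 8 macrophage, 4 tested neutrophil or 6 cholangiocyte markers was called. Muscle markers summed to at most 1.46 FPKM in any library. Of the 5 tested adipocyte markers 1, *Cidec*, was lower, of the 8 stellate cell markers 1 was lower, and of the 4 tested erythroid markers 1 was higher.

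Adipocyte markers stood apart in replicate 2 of the *med23*Δli-labelled livers, where they summed to 224 FPKM, against 28.2 and 33.7 FPKM in the other 2 and 72.4 to 144 FPKM in the controls. *Adipoq* was at 5.65 FPKM there and at most 0.0907 FPKM elsewhere. The control sums came almost wholly from *Cidec* (19.2, 77.6 and 46.7 FPKM) and *Fabp4* (53.2, 66.3 and 64.7 FPKM). *Adipoq*, *Plin1*, *Lep* and *Ucp1* were at 0 in every control, so the sums do not rank the controls by adipocyte content. Without that library 2 of the 10 genes were called higher, *Hspb1* at a log2 fold change of 3.17 and *Hspa8* at 1.19, and none lower. The genes that lost the call had log2 fold changes of 1.18 for *Hsp90aa1*, 0.85 for *Hspb8* and −1.12 for *Hspa1b*, against 1.18, 0.88 and −1.29 with all libraries. Over all genes the calls without that library were 487 higher and 442 lower, against 1384 and 1133, and leaving out replicate 3 of the same group also gave 2 heat shock genes called higher and 0 lower.

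The genes that control the response and those that work with these chaperones were counted in fixed lists. None of the 5 tested genes of heat shock factor control was called by limma, and none had an unadjusted p under 0.05; without control replicate 3, 1 of them was called lower. *Hsf1* had 15.8, 15.1 and 18.0 FPKM in the controls and 18.1, 17.8 and 15.1 FPKM in the *med23*Δli-labelled livers (log2 fold change 0.05, limma adjusted p = 0.803), and *Hsf2* had a log2 fold change of 0.30 (limma adjusted p = 0.277). The list of 20 other genes known as HSF1 targets had 8 called higher and 0 lower, against 11.6% and 9.48% of all genes tested, with a median log2 fold change of 0.48. Under quantile normalization and without control replicate 3, 1 was called lower. Among those called higher was the polyubiquitin gene *Ubb* (642 to 1421 FPKM in the controls and 3251 to 4403 FPKM in the *med23*Δli-labelled livers, log2 fold change 1.99), whose repeated units share sequence. *Hspa4l*, an HSP110 relative, and *Hspe1*, the mitochondrial co-chaperonin, were also called higher, with log2 fold changes of 1.35 and 1.05. Leaving out control replicate 2 gave 5 called higher, and leaving out replicate 1, 2 or 3 of the *med23*Δli-labelled livers gave 3, 3 and 4. The omissions of those 3 livers also lowered the calls over all genes, from 1384 higher to 401, 487 and 578 and from 1133 lower to 349, 442 and 412.

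Co-chaperones were counted next, against 11.6% of all genes called higher and 9.48% lower. None of the 12 HSP70 co-chaperones and exchange factors was called by limma, 3 had an unadjusted p under 0.05, and their median log2 fold change was −0.08. Without control replicate 1, 2 were called higher, and without control replicate 3, 1 was called higher and 1 lower. With median centring and with robust eBayes 1 was called higher. *Bag3*, the partner of HSPB8, had 79.8, 67.8 and 64.5 FPKM in the controls and 49.8, 47.9 and 57.8 FPKM in the *med23*Δli-labelled livers, with no overlap (log2 fold change −0.45, SE 0.14, limma adjusted p = 0.0579). It was the gene called lower without control replicate 3, and it was also called lower under quantile normalization. *Stip1*, which links HSP70 to HSP90, had a log2 fold change of 0.40 (limma adjusted p = 0.228), which was 0.67 without control replicate 1, the 1 of 6 omissions in which it was called (limma adjusted p = 0.0232), and 0.23 without control replicate 2. Of the 17 HSP90 co-chaperones 1 was higher, *Ahsa1*, which speeds up the ATPase of HSP90 (log2 fold change 0.61), and 2 were lower, the immunophilin *Fkbp5* (−1.03) and *Unc45a* (−0.48). Those counts were 3 and 1 without control replicate 1, 0 and 1 without control replicate 2, 3 and 2 without control replicate 3, 0 and 0 without *med23*Δli-labelled replicate 1 and 0 and 1 without replicate 2 or 3 of that group, and 3 were higher with a pseudocount of 1 or robust eBayes and 2 with median centring. With no filter or without a trend they were 0 and 1. Of 7 other HSP70 and HSP110 genes 1 was higher, *Hspa4l*, and 1 lower, *Hspa12b* (log2 fold change −1.16, or −0.50 with a pseudocount of 1). *Hspa12b* lay below the filter at 1 FPKM and was not tested there, and it kept its call in 7 of the 8 other processing settings. *Hspa4l* lost its call without any 1 of the *med23*Δli-labelled livers and with no filter, and when a library was left out *Hspa12b* kept its call only without control replicate 1, while a different gene of the list was called lower without control replicate 3. Among 17 other J-domain genes 1 was higher, *Dnajc18* (log2 fold change 0.53), and among the 4 other small heat shock genes tested none was called and 1 had an unadjusted p under 0.05. The J-domain count was 2 higher without control replicate 1, 3 higher and 2 lower without control replicate 3, and 0 in both directions without any 1 of the other 4 libraries or with no filter. *Dnajc18* kept its call in 7 of 9 processing settings, with a limma adjusted p of up to 0.101. The 6 prefoldin genes had 1 higher, *Pfdn1* (log2 fold change 0.58), which kept its call only without control replicate 1 when a library was left out and lost it with no filter or without a trend, and 1 prefoldin gene was called lower without control replicate 3.

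Chaperones of other systems were counted by compartment, against 11.6% of all genes called higher and 9.48% lower. Of the 8 subunits of TRiC, the cytosolic ring that folds actin and tubulin, 5 were higher and 0 lower (median log2 fold change 0.51), with *Cct4* at 0.85, *Cct7* at 0.72, *Cct5* at 0.53 and *Cct2* at 0.52. This count was 3 under quantile normalization, 3 without control replicate 2 and 0, 0 and 2 without replicate 1, 2 or 3 of the *med23*Δli-labelled livers. Of the 12 mitochondrial chaperones and proteases 5 were likewise higher and 0 lower (median log2 fold change 0.31), against the same shares of all genes, among them the protease *Lonp1* (1.41), the exchange factor *Grpel2* (1.31), the co-chaperonin *Hspe1* (1.05) and the chaperonin *Hspd1* (0.80). That count was 3 with no filter, 2 without control replicate 2 and 2 without each of the *med23*Δli-labelled livers.

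In the endoplasmic reticulum 1 of 15 chaperone genes was higher and 4 were lower (median log2 fold change −0.22), against 11.6% and 9.48% of all genes tested. The fallen genes were *Creld2* (log2 fold change −2.12), the disulphide isomerase *Pdia4* (−0.94), *Sdf2l1* (−0.75) and *Hyou1* (−0.50), and the risen one was calnexin, *Canx* (0.68, with an adjusted p just under the threshold), which lost the call without any 1 library other than control replicate 1. *Hspa5*, the HSP70 of this compartment, had 2061, 1894 and 1513 FPKM in the controls and 1469, 1437 and 1644 FPKM in the *med23*Δli-labelled livers (log2 fold change −0.26, limma adjusted p = 0.290). Its HSP90, *Hsp90b1*, had a log2 fold change of −0.22 (limma adjusted p = 0.459). *Sdf2l1* and *Hyou1* lost the call with no filter, without a trend and without any 1 library other than control replicate 3, and *Pdia4* lost it without *med23*Δli-labelled replicate 1 or 2. The lower count was 2 with no filter or without a trend, 2 without control replicate 1 or 2, and 1, 1 and 2 without replicate 1, 2 or 3 of the *med23*Δli-labelled livers.

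Of the 8 tested genes of the autophagy route that HSPB8 and BAG3 serve, which clears filamin and other damaged proteins, 3 were higher and 0 lower, against 11.6% and 9.48% of all genes tested. Filamin C, *Flnc*, an actin cross-linker best known from muscle, had 0.861, 0.343 and 1.35 FPKM in the controls and 22.1, 14.7 and 23.1 FPKM in the *med23*Δli-labelled livers (log2 fold change 4.53, SE 0.40, limma adjusted p = 0.00131). The cargo receptor *Sqstm1* had a log2 fold change of 0.79 and *Map1lc3b*, a protein of the autophagosome membrane, one of 0.61. Without replicate 1 or 2 of the *med23*Δli-labelled livers 1 of the 8 was called higher, where the calls over all genes also fell as given above. Without control replicate 3 these counts were 4 higher and 1 lower, and under quantile normalization 2 and 1, the gene called lower being *Bag3* in both.

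**Figure D5:**
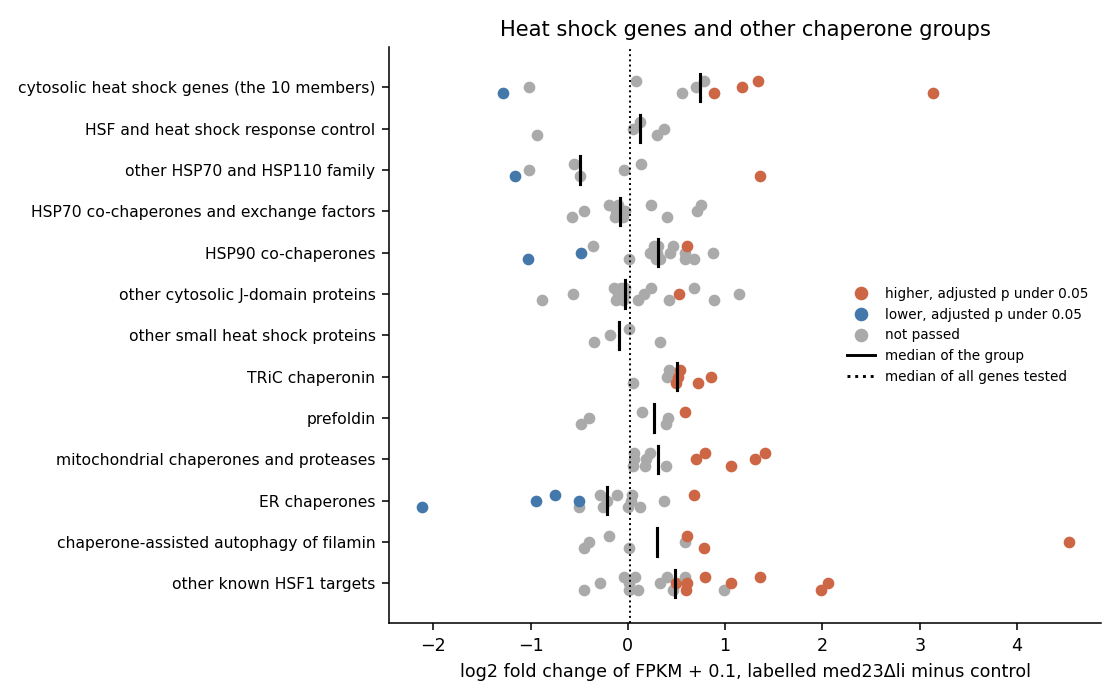
The log2 fold change on the log2(FPKM + 0.1) scale of every tested gene (points, coloured by call) in the 10 heat shock genes and in the 12 lists of related genes, with each list's median as a bar and the median of all genes tested as a dotted line. The ER list has 4 of its 15 genes called lower, and the TRiC and mitochondrial lists have 5 of 8 and 5 of 12 called higher and none lower, against 11.6% of all genes tested called higher and 9.48% lower. Some genes are in more than 1 list.

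The genes whose log2 levels followed *Hspb1* most closely over the 6 libraries were *Casc4*, *Uhrf1bp1l*, *Ptprk*, *Cyfip2* and *Eif4g2*, each with a Pearson r of 0.997 to 0.998. All 5 were lowest in control replicate 2, as *Hspb1* was, which their selection by r over the same libraries favours. The genes most like *Hspa1b* were *Sap18* (r = 0.992), *Ttc38*, *Rab27a*, *0610010F05Rik* and *4921524J17Rik* (r = 0.981 to 0.983). These values describe 6 libraries that fall into 2 groups, and no test was made of them.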

How the data were processed

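Whole-liver RNA (TruSeq v2 libraries, Illumina paired reads) was measured in 3 control mice and 3 mice labelled med23 ko (*med23*Δli in the study's design). The authors checked reads with FastQC, trimmed adapters, aligned them with TopHat (UCSC mm10) and used Cuffdiff; versions, annotation and options are not given in the sources used here. The table that the authors deposited gives 1 FPKM value per library for each of 24346 genes. Its other columns (group FPKM, log2 fold change, test statistic, p, q and call) were not used, and 0 columns of library values were left unmapped.

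FPKM carry no read counts, and no common step was found among low values of different libraries (at most 0.532% of ratios within 0.1% of 1 value), so the depth of each library is unknown here and no counting interval is given. None of 10 housekeeping genes was listed at 0 in any library.

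The 11956 genes reaching a mean of 0.5 FPKM were compared as log2(FPKM + 0.1) with limma 3.58.1 in R 4.3.3 (eBayes with a trend, Benjamini-Hochberg adjustment, no replicate block). Fold changes on this scale understate those of low genes. On simulated data over 11956 genes, 49 of 100 genes changed by 1 and 87 of 100 changed by 2 on the log2 scale were called, with 1 unchanged gene called. No other genes were changed there, whereas 1384 and 1133 genes were called in the real data. The adjustment is stricter when fewer genes change, so these rates hold for the simulated setting and not for the real comparison. Sums and ratios had an exact two-sided permutation test.

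The 10 genes and the lists were chosen with earlier results of these data known. Genes were named by rule: all 10, and up to 4 called genes in each direction with the largest change per list, plus *Hsf1*, *Hsf2*, *Bag3*, *Stip1*, *Hspa4l*, *Hspd1*, *Hspe1*, *Hspa5*, *Hsp90b1* and *Flnc*, plus the 5 genes most correlated with the largest rise and the largest fall. A gene that the rule names is not reported here. Alternatives were other pseudocounts, filters, scalings and eBayes settings, a replicate block and leaving out each library; the summed *Hspa1a* and *Hspa1b* value in the limma fit was added after seeing the data.

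Positions and transcripts came from GENCODE M21, on the assembly of mm10, and promoters from RefSeq (GRCm38.p6). Transcript stretches were matched in Python 3.11.15 and figures drawn with matplotlib 3.10.9.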

Additional observations from a re-analysis of the deposited data

How the results depend on the processing

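Over 15 alternatives, *Hspb1* and *Hspa8* were called higher in all 15. Of 150 values of the 10 heat shock genes, 131 kept their direction and call, 13 lost the call, 3 gained it and 3 reversed; all 3 reversals were of *Dnaja1*, at −0.041 with quantile normalization, −0.137 without control replicate 2 and −0.039 without control replicate 3 (range −0.137 to 0.418 with 1 library left out). The count of heat shock genes called lower was 0 with no filter, without a trend and with robust eBayes, where *Hspa1b* had adjusted p = 0.0862, 0.0606 and 0.0623 (limma). With 1 library left out, 2 to 6 were called higher and 0 to 1 lower, and over all genes 401 to 1750 higher and 349 to 1429 lower. *Med23* ranged from −0.215 to 0.0169, reversing to 0.0169 without control replicate 3. The cause of these moves was not tested. The summed *Hspa1a* and *Hspa1b* value in the limma fit gave −1.25 on the log2 scale (adjusted p = 0.0516), and the log2 difference of the sum ranged from −1.60 to −0.86 with 1 library left out. The ratio differences kept their direction, and their exact p, which 3 against 3 livers bound at 0.1, says nothing about stability.

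Same-numbered livers of the groups deviated with r = −0.02, −0.05 and −0.12 over 11956 genes, and other pairs of livers with r from −0.09 to 0.12. No pairing by number was therefore seen over all genes, though the check cannot exclude one that touches a small part of them. With the replicate block, 809 genes were called higher and 614 lower, against 1384 and 1133 without it, and the 5 calls among the heat shock genes did not change (*Hspa1b* adjusted p = 0.0477, limma). With the block 2 TRiC genes, 3 mitochondrial genes and 0 ER genes were called higher and 2 ER genes lower.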
